A study of Homo sapiens with 4 samples.

Results

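Cytochrome P450 genes were counted in HepG2, a human liver tumor cell line grown in RPMI medium with serum. The paper lists it among hepatocellular carcinoma lines, and the sample titles name no tumor type. The series has 4 libraries, each the only one of its condition. Cells had received DMSO, the solvent control, or PD0332991, an inhibitor of the kinases CDK4 and CDK6. Others were transfected with a scrambled siRNA (here the scrambled control) or with siCDK4 and siCDK6 together (CDK4/6 KD, here the knockdown). Sources used here give neither the dose nor the time for the libraries sequenced. The genes were the 56 symbols made of CYP, a family number, a letter and a member number, less CYP51A1, which serves cholesterol synthesis, and the pseudogene CYP2D7. Of the 54 that remained among 24462 gene symbols, 28 reached 10 reads in any library. They comprised 3 enzymes of bile acid synthesis, 7 of fatty acid oxidation, 4 of steroid hormone synthesis, 8 of drug metabolism, 3 of vitamin D metabolism and 3 with no agreed substrate class.

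P450 enzymes carry a haem group and insert oxygen into their substrate. Those of the endoplasmic reticulum take electrons from the reductase POR, and those of mitochondria take them from ferredoxin and its reductase FDXR. In liver they make bile acids from cholesterol, hydroxylate fatty acids and clear drugs, and many are induced by ligand-activated receptors such as AHR, PXR (NR1I2) and CAR (NR1I3), while FXR (NR1H4) restrains bile acid synthesis. HepG2 cells are known to hold far less of the drug-metabolizing P450s than hepatocytes.

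Promoters are shown for 3 genes known as targets of AHR, because CYP1A1 and CYP2S1 were higher after PD0332991 and lower in the knockdown, and CYP1A2 lies beside CYP1A1 on chromosome 15. RefSeq promoters of GRCh38.p14 were matched by symbol for 21 of the 28 members, without CYP1B1, CYP2D6, CYP4F12, CYP8B1, CYP24A1 and CYP27B1 among others. The 250 bases before each start are printed 5′ to 3′ on the gene's strand, and capitals mark the core of the xenobiotic response element (GCGTG, or CACGC on the other strand) and the TATA box (TATAAA, or TTTATA on the other strand). The window of CYP1A1 is chr15:74725529-74725778 on the minus strand, that of CYP1A2 is chr15:74748595-74748844 on the plus strand, and that of CYP2S1 is chr19:41192969-41193218 on the plus strand.
CYP1A1: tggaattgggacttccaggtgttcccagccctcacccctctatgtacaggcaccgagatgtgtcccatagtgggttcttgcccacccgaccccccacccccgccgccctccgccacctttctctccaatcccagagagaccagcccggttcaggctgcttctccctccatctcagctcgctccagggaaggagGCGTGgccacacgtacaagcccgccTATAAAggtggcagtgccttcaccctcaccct
CYP1A2: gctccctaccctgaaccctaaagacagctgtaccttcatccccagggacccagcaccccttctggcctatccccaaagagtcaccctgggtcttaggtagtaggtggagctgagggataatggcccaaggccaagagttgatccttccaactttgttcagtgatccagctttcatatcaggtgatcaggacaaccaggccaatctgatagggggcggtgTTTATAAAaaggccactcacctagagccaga
CYP2S1: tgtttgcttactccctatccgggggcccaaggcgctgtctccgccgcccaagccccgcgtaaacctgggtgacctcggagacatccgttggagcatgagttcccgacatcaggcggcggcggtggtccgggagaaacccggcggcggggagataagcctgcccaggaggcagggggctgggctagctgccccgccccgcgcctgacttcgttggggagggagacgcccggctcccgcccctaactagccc
In CYP1A1 the response element core began 57 bases before the start and the TATA box 32 bases before it. CYP1A2 held overlapping matches to the TATA box that began 31 and 29 bases before the start, and no core, and CYP2S1 held neither. Of 35116 promoter windows of this length, 32.2% held the core and 10.7% the TATA box. A match describes the letters and is not a site. Bases farther upstream were not searched, so a window without the core does not show that the gene lacks it.

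CYP4F2 and CYP4F11, fatty acid hydroxylase genes on chromosome 19, are shown because each CYP4F gene had more reads in the knockdown than in its control. Their windows are chr19:15898075-15898324 and chr19:15934868-15935117, both on the minus strand, and capitals mark aligned runs of at least 10 identical bases.
CYP4F2: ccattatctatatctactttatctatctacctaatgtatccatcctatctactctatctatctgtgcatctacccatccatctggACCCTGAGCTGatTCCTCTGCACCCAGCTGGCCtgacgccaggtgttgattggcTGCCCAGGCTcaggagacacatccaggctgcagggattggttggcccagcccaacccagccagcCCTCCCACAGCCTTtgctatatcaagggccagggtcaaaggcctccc
CYP4F11: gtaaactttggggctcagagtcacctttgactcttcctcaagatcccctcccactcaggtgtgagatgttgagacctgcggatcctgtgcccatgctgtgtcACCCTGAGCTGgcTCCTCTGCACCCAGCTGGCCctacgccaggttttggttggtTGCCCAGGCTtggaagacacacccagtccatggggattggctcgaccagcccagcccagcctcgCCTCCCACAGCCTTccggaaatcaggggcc
These windows were identical at 68.0% of 250 bases, with 55 bases in such runs. That of CYP4F3 was 51.2% identical to CYP4F2 and 50.8% identical to the printed window of CYP4F11. CYP4F11 has 2 windows among the matched promoters, and the other, chr19:15934530-15934779, was not compared with any gene.

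Libraries held 8983848 to 11176880 reads. Reads are given below in the order DMSO, PD0332991, scrambled control and knockdown. CDK4 had 2754, 2344, 3789 and 814 reads and CDK6 had 4707, 4361, 5734 and 1464, so both siRNA targets were lowest in the knockdown. All 10 hepatocyte markers were found in every library, with summed levels of 13702, 16074, 16044 and 20143 CPM (counts scaled to library size), whereas 4 endothelial markers summed to less than 1 CPM. The 5 immune markers summed to 753, 519, 1035 and 509 CPM, of which LYZ gave 742, 504, 1022 and 501. The 4 cholangiocyte markers summed to 770, 684, 1479 and 899 CPM, and KRT19 had 3232, 2796, 12181 and 6122 reads. Of 15 keratinocyte markers, 8 had enough reads to compare PD0332991 with DMSO, and 6 of them lay 2-fold or more above and 1 as far below (median log2 fold change 3.48). KRT14 had 9, 249, 31 and 74 reads, whereas SFN had 1221, 563, 3266 and 1152, and TP63 had 1, 1, 0 and 1 and LOR had 0. With SFN included, the list summed to 209, 230, 371 and 210 CPM. All 6 stromal markers compared were higher after PD0332991, with 66, 148, 17 and 36 reads of COL1A2, and the 7 stromal markers to 137, 253, 129 and 149. The 6 proliferation markers summed to 3782, 468, 2752 and 1130 CPM. The part of these differences in the results was not tested, and fewer cells of a type cannot be told apart from less RNA per cell.

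Levels within the family were uneven. CYP27A1, the mitochondrial sterol 27-hydroxylase, took 49.3% of the family's reads in DMSO (95% Clopper-Pearson interval 47.9 to 50.8), 47.6% after PD0332991, 52.4% in the scrambled control and 50.6% in the knockdown. With CYP20A1 and CYP2W1 it took 80.3%, 73.0%, 82.9% and 78.5%. The 25 other genes summed to 99.9, 202, 74.1 and 120 CPM, so they were higher in each treated library than in its own control. QuantSeq reads come from the 3′ end of transcripts, so read numbers do not scale with gene length.

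**Figure D1:**
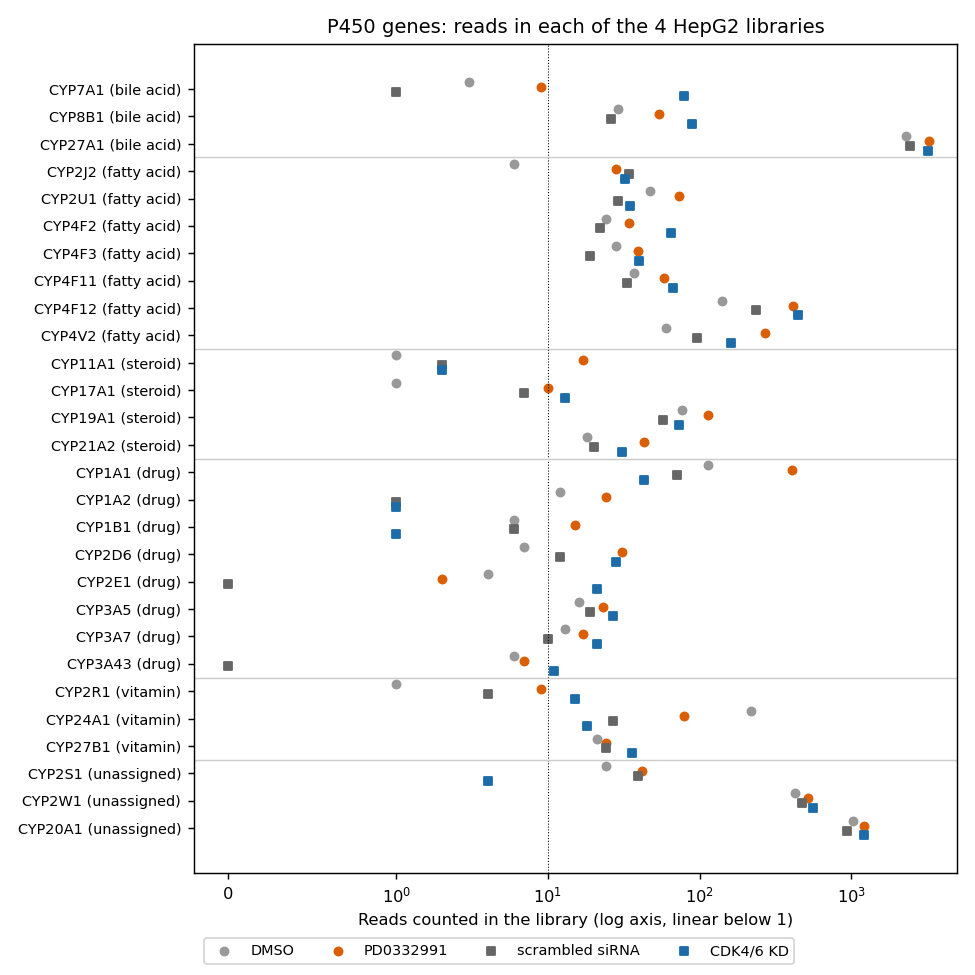
Reads of each of the 28 P450 genes (log axis, linear below 1) in DMSO, PD0332991, scrambled siRNA and CDK4/6 KD, 1 library each, with a dotted line at 10 reads. CYP27A1 has the most reads in each library, and CYP7A1 has 79 reads in CDK4/6 KD against 1 in scrambled siRNA.

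Of the 26 genes that did not reach 10 reads, 14 had 0 reads throughout and 12 had 9 or fewer in their highest library. They included main drug-metabolizing enzymes of adult liver. CYP3A4 had at most 4 reads, and CYP2A6 and CYP2C19 had 0. CYP2B6 was nearest to the minimum with 9 reads, and CYP3A43 just inside it with 11. The fatty acid hydroxylases CYP4A11 and CYP4A22 had 0 reads, and the sterol hydroxylases CYP7B1, CYP39A1 and CYP46A1 had at most 3.

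Fold changes were formed from normalized counts with 0.5 reads added, for genes with 10 or more reads in either library. Parentheses give 95% Clopper-Pearson intervals, which cover counting error only. With 1 library per condition there was no test, and the values compare libraries. In the knockdown against the scrambled control, 7 of 25 members lay 2-fold or more above and 1 lay 2-fold or more below. The background over all 13617 genes was 9.19% above and 7.62% below. Genes with a mean under 100 reads vary more, with 21.2% above and 12.2% below, and 20 members in that range gave 7 and 1. The members' median log2 fold change was 0.66, beside -0.0036 over all genes.

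After PD0332991, 9 of 24 members lay 2-fold or more above DMSO and 1 lay as far below, beside 7.49% and 7.07% of 13443 genes. Under a mean of 100 reads the members gave 6 and 0 of 17, beside 18.1% and 10.6%. Their median log2 fold change was 0.72, beside 0.018 over all genes. These counts are not support by themselves, since 6 members in the knockdown comparison (CYP17A1, CYP2E1, CYP2R1, CYP2S1, CYP3A43 and CYP7A1) and 5 in the PD0332991 comparison (CYP11A1, CYP17A1, CYP1B1, CYP2D6 and CYP2J2) reached 10 reads in 1 of its libraries alone. With 10 or more reads in both libraries, 16 of 19 members were higher in the knockdown and 18 of 19 after PD0332991, beside 48.5% and 50.3% of all such genes.

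A stricter count took only genes whose whole interval lay past 2-fold. Above were CYP7A1, CYP8B1, CYP2E1 and CYP3A43 in the knockdown, and below was CYP2S1, beside 3.33% and 3.22% of all genes. Of these 5, only CYP8B1 had 10 or more reads in both libraries, so the count is a description. After PD0332991 these were CYP1A1, CYP4F12, CYP4V2 and CYP11A1 above and CYP24A1 below, beside 1.68% and 3.38%. That count is a description too, since CYP11A1 reached 10 reads in the PD0332991 library alone. CYP24A1 turned to 3.39 against the scrambled control. The controls themselves differed: 1 of 21 members lay 2-fold or more higher in the scrambled control than in DMSO and 2 lower, beside 5.3% and 6.64% of all genes. Under a mean of 100 reads, 1 and 1 of 16 did, beside 12.6% and 14.6%. At any size of difference, 15 of 21 members were lower in the scrambled control. Their median log2 fold change was -0.35, beside 0.0088 over all genes. With 10 or more reads in both controls, 4 of 18 members were higher in the scrambled control, beside 50.1% of all such genes. The members' median was 0.46 for the knockdown against DMSO and 1.13 for PD0332991 against the scrambled control.

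**Figure D2:**
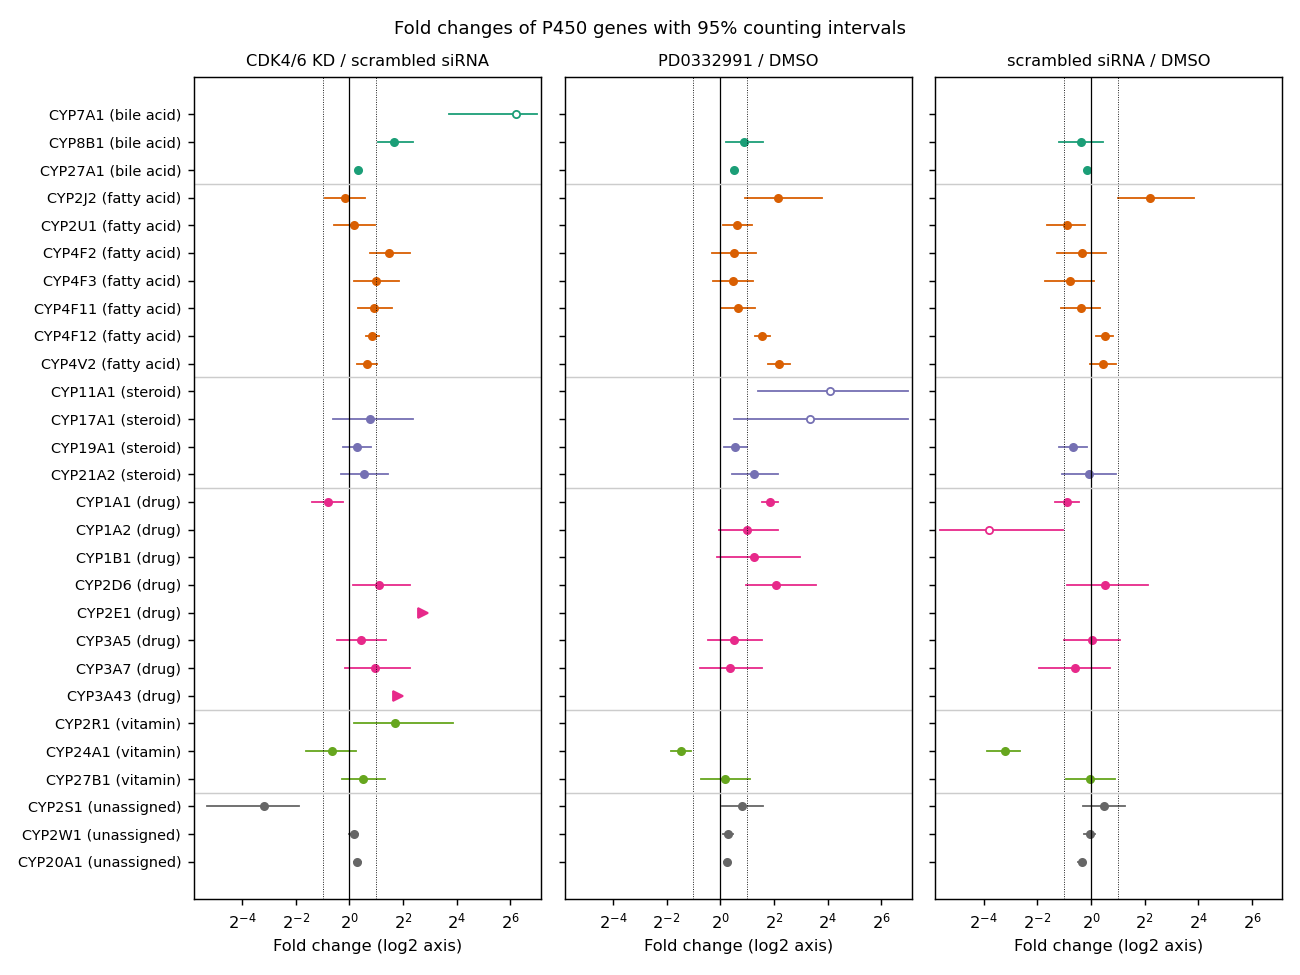
Fold change (log2 axis) of each P450 gene with 10 or more reads in either library for CDK4/6 KD against scrambled siRNA, PD0332991 against DMSO and scrambled siRNA against DMSO, coloured by class, with 95% counting intervals drawn no further than the axis. Open points are ratios where a library had 1 to 3 reads, triangles are lower bounds where a library had 0, and dotted lines mark 2-fold. CYP8B1 lies above 2-fold in the first panel, and CYP4V2 and CYP1A1 in the second.

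Bile acid enzymes had their largest difference in the knockdown. CYP7A1, the rate-limiting enzyme of the classical route, on chromosome 8, had 3, 9, 1 and 79 reads, so the knockdown stood far above the other libraries. Its ratio to the scrambled control was 74.7 (13.02 to 2987), with a width set by a single read, and its fold change against DMSO was 18.6 (7.01 to 105). CYP8B1, the sterol 12-alpha-hydroxylase that directs synthesis toward cholic acid, on chromosome 3, had 29, 54, 26 and 89 reads, and both treated libraries exceeded both controls. Its fold changes were 3.19 (2.07 to 5.22) in the knockdown and 1.86 (1.17 to 3.04) after PD0332991. CYP27A1, which starts the acidic route, on chromosome 2, had 2289, 3242, 2430 and 3204 reads and fold changes of 1.25 (1.18 to 1.31) and 1.42 (1.35 to 1.5001). The fold change in the knockdown divided by that after PD0332991 was 1.72 (0.922 to 3.21) for CYP8B1, whose approximate interval holds 1, and 0.877 (0.814 to 0.945) for CYP27A1. Of the 10 hepatocyte markers, 9 were also higher in the knockdown than in its control.

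Other genes of bile acid synthesis and transport were divided. Of 14 listed, 11 had enough reads, of which 6 were higher and 5 lower in the knockdown (median log2 fold change 0.29), and 7 were higher and 4 lower after PD0332991 (median 0.043). KLB, the co-receptor through which FGF19 restrains CYP7A1, had 995, 1494, 531 and 2294 reads, with fold changes of 4.08 (3.71 to 4.50) and 1.51 (1.39 to 1.63), and 1.86 (1.73 to 2.01) for the knockdown against DMSO. HSD3B7, which acts next after CYP7A1, had 1078, 937, 1344 and 694 reads and a fold change of 0.488 (0.445 to 0.535) in the knockdown. BAAT, which conjugates bile acids, had 39, 28, 362 and 108 reads, so that its fold change of 0.283 (0.225 to 0.351) was taken against a control 7.85-fold above DMSO, and against DMSO the knockdown was higher at 2.22 (1.54 to 3.31). AKR1D1, the 5-beta-reductase, was higher in the knockdown at 1.87 (1.64 to 2.15). The bile salt exporter ABCB11 and the hormone FGF19 had 0 reads in every library.

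Fatty acid enzymes summed to 37.5 CPM in DMSO, 101 after PD0332991, 43.6 in the scrambled control and 74.7 in the knockdown. All 7 were higher after PD0332991 (median log2 fold change 0.65), and 6 of 7 were higher in the knockdown (median 0.85). CYP4F12, an omega-hydroxylase and the most counted of the class, had 141, 413, 234 and 446 reads, and both treated libraries exceeded both controls. Its fold changes were 2.93 (2.42 to 3.58) after PD0332991 and 1.80 (1.53 to 2.12) in the knockdown. CYP4V2, an omega-hydroxylase whose loss causes a corneoretinal dystrophy, on chromosome 4, had 60, 271, 96 and 161 reads, the most after PD0332991. It was higher at 4.51 (3.42 to 6.10) after PD0332991 and at 1.58 (1.22 to 2.06) in the knockdown, and the latter divided by the former was 0.351 (0.241 to 0.511). Transcripts of KLKB1, which overlaps it on the same strand, share 22.1% of the 75-base windows in its last 500 bases.

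The other CYP4F genes had fewer reads. CYP4F2, which hydroxylates vitamin K and leukotriene B4, had 24, 34, 22 and 65 reads, with fold changes of 2.75 (1.70 to 4.76) in the knockdown and 1.41 (0.819 to 2.51) after PD0332991. CYP4F3, a leukotriene B4 omega-hydroxylase, had 28, 39, 19 and 40 reads, with 1.963 (1.13 to 3.64) and 1.39 (0.838 to 2.36) likewise. CYP4F11 had 37, 58, 33 and 67 reads, with 1.90 (1.25 to 3.01) and 1.57 (1.02 to 2.44). In each of these genes the knockdown exceeded the scrambled control beyond counting error. Against DMSO it was at 2.16 (1.35 to 3.65) for CYP4F2, and the intervals held 1 for CYP4F3, at 1.15 (0.694 to 1.94), and CYP4F11, at 1.46 (0.964 to 2.25). No 75-base window at the 3′ end of these genes was found in transcripts of another gene, although CYP4F2 and CYP4F11 are alike before their starts, as printed above.

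CYP2J2 and CYP2U1, which oxidize arachidonic acid, depended on the control. CYP2J2, on chromosome 1, had 6, 28, 34 and 32 reads, so that DMSO alone stood low. After PD0332991 it was at 4.42 (1.90 to 13.8) against DMSO and at 0.968 (0.565 to 1.64) against the scrambled control. CYP2U1 had 47, 73, 29 and 35 reads, with 1.14 (0.677 to 1.93) in the knockdown, 0.605 (0.377 to 0.951) for the knockdown against DMSO, and 1.55 (1.07 to 2.30) after PD0332991.

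**Figure D3:**
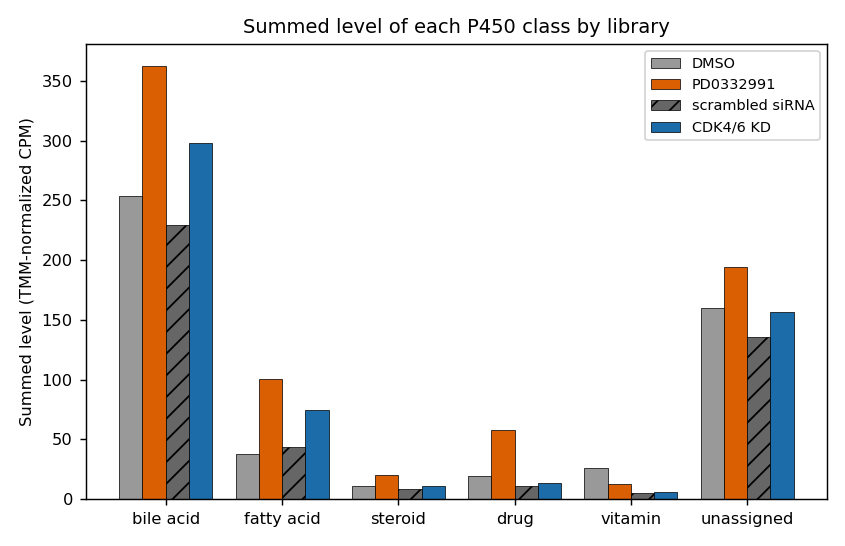
Summed level of each class of P450 genes (TMM-normalized CPM) in DMSO, PD0332991, scrambled siRNA and CDK4/6 KD, 1 library each, so bars carry no error. The fatty acid class reaches 101 CPM and the drug class 57.4 CPM after PD0332991, against 37.5 and 19.4 in DMSO, and CYP1A1 alone gives 44.4 of the 57.4 and 12.4 of the 19.4.

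Steroid hormone enzymes had few reads and were higher after PD0332991. CYP19A1, the aromatase that makes estrogens, on chromosome 15, had 77, 113, 57 and 73 reads, with 1.47 (1.09 to 1.99) after PD0332991 and 1.21 (0.844 to 1.74) in the knockdown, the latter holding 1. CYP21A2, the steroid 21-hydroxylase, had 18, 43, 20 and 31 reads, with 2.36 (1.35 to 4.42) and 1.45 (0.809 to 2.71). It overlaps TNXB on the opposite strand, its pseudogene CYP21A1P had 23, 28, 13 and 35 reads, and whether counting used strand is not given in the sources used here. CYP11A1, which cleaves the cholesterol side chain, had 1, 17, 2 and 2 reads, so only the PD0332991 library lay above the floor of 3 reads, and its ratio to DMSO was 17.1 (2.67 to 713). CYP17A1, the 17-alpha-hydroxylase and lyase, had 1, 10, 7 and 13 reads, with a ratio of 10.0 (1.43 to 435) that rests on a single read in DMSO, and 1.63 (0.577 to 5.20) against the scrambled control. WBP1L overlaps its end on the opposite strand. The PD0332991 library, also the highest for CYP1A1 below, was that with the most KRT14 and COL1A2 reads, whose part was not tested.

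Among drug-metabolizing enzymes the treatments parted in CYP1A1, of the CYP1 family, which oxidizes polycyclic aromatic compounds. CYP1A1 had 113, 404, 71 and 43 reads, so PD0332991 was the highest library and the knockdown the lowest. Its fold changes were 3.58 (2.91 to 4.46) after PD0332991 and 0.576 (0.383 to 0.848) in the knockdown. With the controls exchanged they were 6.64 (5.19 to 8.73) and 0.310 (0.211 to 0.440), in the same directions. CYP1A2 had 12, 24, 1 and 1 reads, with 1.97 (0.965 to 4.40) after PD0332991 and no fold change between the transfected libraries, which lay under the floor. CYP1B1, on chromosome 2, had 6, 15, 6 and 1 reads and was at 2.40 (0.920 to 7.89) after PD0332991, an interval that holds 1.

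CYP2S1, listed among the genes of no agreed class and also induced by AHR ligands, had 24, 42, 39 and 4 reads, so the knockdown alone stood low. Its fold change there was 0.109 (0.0252 to 0.269), or 0.151 (0.0339 to 0.392) against DMSO. After PD0332991 it was 1.74 (1.04 to 3.03), or 1.26 (0.799 to 2.01) against the scrambled control. The fold change in the knockdown divided by that after PD0332991 was 0.0626 (0.0210 to 0.187) for CYP2S1 and 0.161 (0.105 to 0.248) for CYP1A1. Of the windows printed above, that of CYP1A1 holds the response element core and that of CYP2S1 does not. The core was held by 5 of the 21 matched members, which have 31 windows between them. Over all promoter windows the share was 32.2%, counted by window and not by gene. Besides CYP1A1 the members were CYP2J2, CYP11A1, CYP20A1 and CYP2W1, so the core is not particular to CYP1A1. AHR itself had 239, 250, 267 and 340 reads, with 1.05 (0.876 to 1.26) after PD0332991 and 1.203 (1.02 to 1.42) in the knockdown, or 1.15 (0.970 to 1.36) against DMSO. Its repressor AHRR had 9, 21, 3 and 8, and TIPARP, another AHR target, had 94, 90, 90 and 100.

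The remaining drug-metabolizing enzymes had at most 31 reads. CYP2D6, which metabolizes many psychiatric and cardiac drugs, on chromosome 22, had 7, 31, 12 and 28 reads, with 4.23 (1.92 to 12.0) after PD0332991 and 2.15 (1.09 to 4.76) in the knockdown. Transcripts of CYP2D7 or CYP2D8P hold 51.4% of the 75-base windows at its 3′ end, and CYP2D7 had 7, 12, 7 and 17 reads, so the split between these copies is uncertain. CYP2E1, the ethanol-inducible enzyme, on chromosome 10, had 4, 2, 0 and 21 reads and was at least 6.62-fold higher in the knockdown, against a floor of 3 reads in the scrambled library, and 3.91 (1.43 to 17.0) against DMSO. CYP3A43 had 6, 7, 0 and 11 reads and was at least 3.47-fold higher on that floor, but 1.45 (0.502 to 4.87) against DMSO. CYP3A5, on chromosome 7, had 16, 23, 19 and 27 reads and its fetal neighbour CYP3A7 had 13, 17, 10 and 21, and their intervals held 1 in both comparisons. Of the 75-base windows of CYP3A5, 8.92% are shared with CYP3A4.

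**Figure D4:**
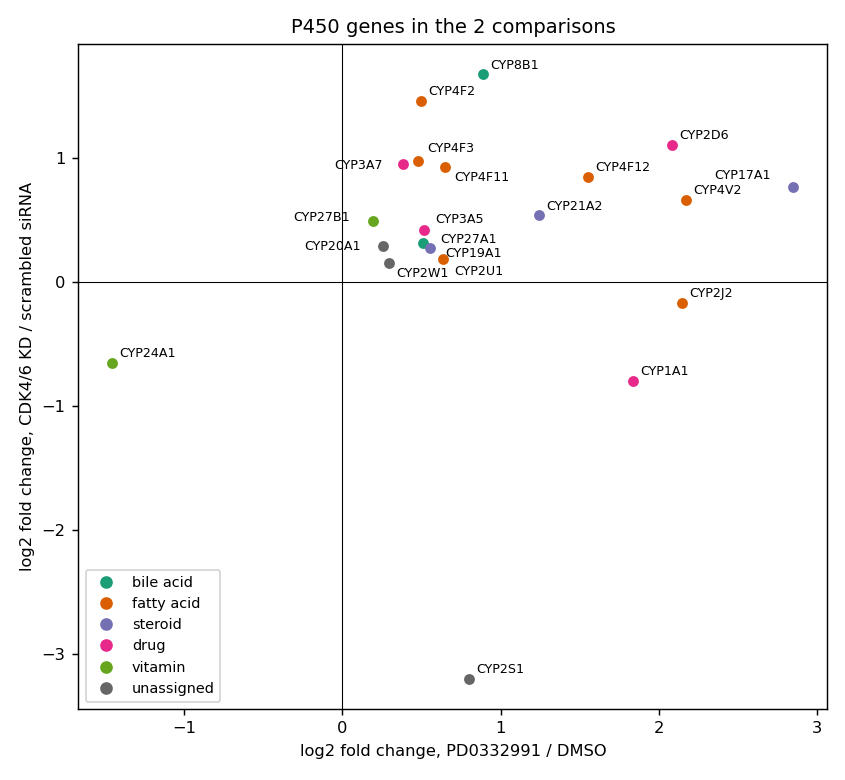
Log2 fold change of PD0332991 against DMSO (horizontal) and of CDK4/6 KD against scrambled siRNA (vertical), 0.5 reads added, for the 21 P450 genes with 10 or more reads in a library of each comparison, coloured by class. CYP1A1, CYP2S1 and CYP2J2 lie at the lower right, CYP24A1 at the lower left and the other 17 at the upper right.

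Enzymes of vitamin D metabolism differed among themselves. CYP24A1, the 24-hydroxylase that inactivates vitamin D, on chromosome 20, had 218, 79, 27 and 18 reads, so DMSO was the highest and the transfected libraries the lowest. It was at 0.365 (0.277 to 0.472) after PD0332991, but the scrambled control was itself at 0.108 (0.0681 to 0.158) relative to DMSO. Against that control PD0332991 was at 3.39 (2.20 to 5.54), so its direction depended on the control, and the knockdown was at 0.637 (0.327 to 1.19). CYP27B1, the 1-alpha-hydroxylase that activates vitamin D, on chromosome 12, had 21, 24, 24 and 36 reads, and its intervals held 1. CYP2R1, the vitamin D 25-hydroxylase of liver, on chromosome 11, had 1, 9, 4 and 15 reads and was at 3.25 (1.13 to 14.7) in the knockdown. The receptor VDR had 18, 20, 6 and 11 reads.

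The abundant genes of no agreed class differed little. CYP20A1, on chromosome 2, had 1018, 1213, 936 and 1211 reads, with 1.22 (1.12 to 1.33) in the knockdown and 1.196 (1.10 to 1.30) after PD0332991, while the knockdown against DMSO was at 0.960 (0.883 to 1.04). CYP2W1, known from fetal gut and colorectal tumors, had 422, 515, 475 and 560 reads, with 1.11 (0.984 to 1.26) and 1.22 (1.07 to 1.40). Across the family, 21 genes could be compared in both arms, of which 17 were higher in both and 7 had both intervals above 1. The count is a description. Among the 17, CYP17A1 reached 10 reads in 1 library alone of each comparison, and CYP2D6 did so in the PD0332991 comparison. CYP19A1, CYP20A1 and CYP2U1, also among the 17, fell below 1 in the knockdown with DMSO as the control. Of all 13099 genes compared in both arms, 29.7% were higher in both and 11.8% had both intervals above 1. CYP24A1 was lower in both, and CYP1A1, CYP2S1 and CYP2J2 were higher after PD0332991 and lower in the knockdown, CYP2J2 with an interval there that held 1, at 0.891 (0.532 to 1.49).

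Of 10 electron donor genes listed, 9 were found, of which 1 passed 2-fold in the knockdown and 0 after PD0332991, with median log2 fold changes of 0.17 and 0.018. The share of all genes was 9.19% and 7.49%, so these counts do not set the list apart. POR, the donor of microsomal P450s, had 2051, 2822, 2495 and 3311 reads, with 1.25 (1.19 to 1.32) in the knockdown and 1.38 (1.30 to 1.46) after PD0332991. PGRMC2, a haem chaperone, was at 2.10 (1.98 to 2.23) in the knockdown, or 1.43 (1.35 to 1.51) against DMSO. CYB5A, which codes for cytochrome b5, was at 1.41 (1.34 to 1.48) in the knockdown. CYB5B, its mitochondrial form, was at 0.548 (0.508 to 0.591) after PD0332991. Of 9 genes of haem synthesis and breakdown, 0 passed 2-fold in either comparison, beside the same shares. ALAS1, the rate-limiting enzyme, had 240, 218, 175 and 295 reads, with 1.59 (1.32 to 1.93) and 0.912 (0.755 to 1.10), but the scrambled library was the lowest, and the knockdown against DMSO was at 0.992 (0.834 to 1.18). CPOX, a later step, was lower in both at 0.611 (0.512 to 0.726) and 0.572 (0.466 to 0.697), and HMOX1, which breaks haem down, was at 0.661 (0.595 to 0.735) after PD0332991, or 0.972 (0.869 to 1.09) against the scrambled control.

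Of 16 receptors and regulators, 2 of 14 with enough reads lay 2-fold or more above and 1 below in the knockdown, and 2 and 0 of 16 did after PD0332991. These counts lie near the shares of all genes, which were 9.19% and 7.62% in the knockdown and 7.49% and 7.07% after PD0332991. FXR (NR1H4) had 257, 277, 79 and 337 reads, so its 4.01 (3.15 to 5.22) in the knockdown rests on a scrambled library that alone was low. SHP (NR0B2), the repressor that FXR induces, had 545, 844, 1336 and 910 reads, with 0.644 (0.591 to 0.701) and 1.55 (1.39 to 1.73). With the controls exchanged both directions of SHP turned, to 1.35 (1.21 to 1.502) and 0.743 (0.680 to 0.810). LRH-1 (NR5A2), an activator of bile acid genes, had 29, 42, 102 and 29 reads, with 0.273 (0.171 to 0.409) and a scrambled library that alone was high. ONECUT1, a hepatocyte factor, had 60, 86, 23 and 84 reads, with 3.40 (2.16 to 5.74) against a scrambled library that alone was low and 1.13 (0.802 to 1.60) against DMSO. RXRA, the partner of FXR, was at 1.78 (1.62 to 1.961) in the knockdown, or 1.44 (1.32 to 1.59) against DMSO. PXR (NR1I2) had 53, 73, 104 and 106 reads and CAR (NR1I3) had 2, 11, 8 and 6. HNF4A, a master regulator of hepatocyte genes, had 1356, 1843, 1597 and 1844 reads, with 1.09 (1.02 to 1.17) and 1.36 (1.27 to 1.46).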

How the data were processed

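RNA of HepG2 cells was sequenced from QuantSeq 3′ libraries with single reads of 75 bases, and samples were grouped by their titles. The files hold raw counts of reads for 25737 entries, deposited as the authors made them, and 286 symbols occur more than once. The submitters' processing notes name Bowtie2, edgeR and hg19, while versions, the counter, annotation and strand setting are not given in the sources used here. Repeated symbols were summed to 24462 genes (of 6 CYP21A2 entries, 1 had reads).

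TMM factors (0.957 to 1.03) came from edgeR 4.0.16 in R 4.3.3. Fold changes used 0.5 added reads and a minimum of 10 reads in either library, with 3 reads as the floor. A ratio of reads was given where a library had 1 to 3, except for CYP7A1 against DMSO. The 95% intervals (scipy 1.17.1) describe how reads split between libraries, without allowance for PCR copies, and those on ratios of fold changes are normal approximations on the log scale. No quasi-likelihood test was run, as conditions had no replicates. The last 500 bases of transcripts were searched in GENCODE 29. The procedure was tested on simulated data.

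All members were named, and of each companion list up to 4 genes by the interval end nearest to 1, with POR, ALAS1, NR1I2, NR1I3, NR1H4, NR0B2, AHR and HNF4A. VDR, AHRR, TIPARP, ABCB11, FGF19 and the marker genes were named after their values were seen. Members and lists were chosen with earlier results of these data known. Alternatives used DESeq2 1.42.0 size factors, total counts, limma 3.58.1 quantile normalization, other minimums and thresholds, and the other control.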

Additional observations from a re-analysis of the deposited data

Results flagged for a closer look

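CYP1A1 and CYP2S1 stood out because their counting intervals lay on opposite sides of 1 in the knockdown and PD0332991 comparisons, a difference that was not tested since each condition had 1 library. CYP1A1 had a fold change of 0.576 in the knockdown and 3.58 after PD0332991. CYP2S1 had a fold change of 0.109 in the knockdown and 1.74 after PD0332991, and the latter interval included 1 when scrambled siRNA was the control.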

How the results depend on the processing

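DESeq2 size factors, total counts, quantile normalization, 5 added reads and using a single entry per repeated symbol left member counts within 1.5 times. Class medians stayed between the medians of their members' lower and upper interval ends. That range is wide and is not an interval of the median, so staying inside it is a weak check. Without a read filter, 11 members were 2-fold higher and 4 lower in the knockdown and 14 and 4 after PD0332991. The median log2 fold change of all members was then 0 in the knockdown and 0.24 after PD0332991. In the knockdown it was 0.16 for bile acid, 0.093 for fatty acid, 0.14 for steroid and 0 for drug enzymes. After PD0332991 it was 0.26, 0.49, 0.90 and 0.21 in the same order. All these medians were lower than with the filter, since genes near 0 reads then entered. At 50 reads, 3 were higher and 0 lower in the knockdown and 3 higher after PD0332991, and the drug class in the knockdown was CYP1A1 alone, at -0.80. With the other arm's control, 4 were lower in the knockdown, the fatty acid median there was 1.11, and 14 were higher and 0 lower after PD0332991. CYP24A1 then turned to 1.76 and CYP2J2 to -0.046 (log2) after PD0332991, and CYP19A1, CYP20A1, CYP2U1 and CYP2J2 crossed 1 in the knockdown. At 1.5-fold, 13 were higher and 3 lower in the knockdown and 14 higher after PD0332991, and with the whole interval past 2-fold, 4 were higher in each. A mean of 10 reads over the libraries, chosen after seeing the data, left 4 higher in the knockdown. Why the other control moved these values was not tested. No paired analysis was possible because each condition had 1 library with no replicate number, and no library could be left out.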
